A study of Mus musculus with 4 samples.

Results

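The genes described here encode the enzymes that make fatty acids from citrate, lengthen them and put double bonds into them. There are 10 of them, Acly, Acaca, Fasn, Elovl1, Elovl5, Elovl6, Scd1, Scd2, Fads1 and Fads2, chosen by symbol from the 15768 genes of the gene table. All 10 were found, and all 10 were among the 12222 genes expressed well enough to be tested. They were measured by RNA-seq in JoMa1.3, an established line of mouse neural crest stem cells kept dividing by an inducible form of Myc. The control siRNA group was wild type and received a pool of siRNAs that target no gene. The Lkb1 siRNA group was the same line given siRNAs, also pooled, that target Stk11, which encodes the kinase LKB1, so Lkb1 was knocked down and not deleted. The study profiled RNA to find genes that act below Lkb1 in these cells.

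Both pools were used at 60 nM, and RNA was taken 72 h after transfection. Each group had 2 libraries, 1 in batch 1 and 1 in batch 2. The labels name a pair of transfection reagents but not the libraries they were used for. Nothing in the labels beyond a culture number and a batch marks the cultures as independent, so the p-values measure the spread between these libraries, which may be technical.

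Cells build palmitate in the cytosol. ATP citrate lyase (Acly) cuts citrate into acetyl-CoA, acetyl-CoA carboxylase (Acaca) turns that into malonyl-CoA, and fatty acid synthase (Fasn) joins these units into a saturated chain. In the endoplasmic reticulum, elongases (Elovl genes) lengthen the chain, stearoyl-CoA desaturases (Scd genes) make monounsaturated fatty acids, and the Fads desaturases act on the polyunsaturated fatty acids that come from the diet. The SREBP transcription factors switch many of these genes on when lipids run short. LKB1 activates the kinase AMPK, which phosphorylates and restrains the Acaca enzyme, a step that RNA levels do not show.

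Total gene counts ran from 17426719 to 19324675. The control siRNA libraries held Stk11 at 121.5 and 117.9 CPM (counts scaled to a library total adjusted by TMM scaling). The Lkb1 siRNA libraries held Stk11 at 81.4 and 82.0 CPM, and here and throughout, batch 1 comes before batch 2. By edgeR's quasi-likelihood test the log2 fold change was -0.55 with an SE of 0.0659 (adjusted p = 0.0378). That call was lost with library size alone (adjusted p = 0.0633) and with limma on FPKM (0.163 and 0.141). Of 11 neural crest markers 9 were measured, and 7 of them reached 1 FPKM (fragments scaled to transcript length and library total) in every library, among them Sox9, Snai2, Twist1 and Pax3. Ngfr stayed under 1 FPKM in every library, Ednrb reached at most 0.02 FPKM, and Sox10 and Foxd3 were not found by symbol among the 15768 genes listed. The 6 adipocyte markers measured summed to between 12.97 and 14.63 FPKM, most of it Pnpla2 (10.7 to 11.97 FPKM), a lipase found in many cell types, with Pparg at 1.56 to 2.21 FPKM and Fabp4 at 0.41 to 1.06 FPKM. The adipocyte genes Adipoq, Cidec and Lep reached at most 0.06 FPKM, and the hepatocyte gene Apoa1 at most 0.08 FPKM.

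In the control siRNA libraries Scd2 stood far above the other 9 genes on the FPKM scale. Its level was 464.1 and 492.4 FPKM, higher than 98.8% of the genes listed. Fads1 (98.1 and 106.9 FPKM), Acly (101.3 and 95.04) and Scd1 (95.6 and 98.6) followed, and neighbours in that order overlapped between the control libraries. Fads2 came next (94.8 and 91.7 FPKM), then Elovl5 (61.9 and 61.5), Fasn (60.9 and 53.7), Elovl1 (35.5 and 34.1), Elovl6 (22.3 and 21.6) and Acaca (16.9 and 16.3). From Scd1 downwards no gene overlapped its neighbour, although the gaps between Scd1 and Fads2 and between Elovl5 and Fasn were under 1 FPKM. Acaca still exceeded 67.1% of the genes listed. Together the 10 genes took 0.484 and 0.492% of all counts in the control siRNA libraries and 0.448 and 0.447% in the Lkb1 siRNA libraries, and Scd2 alone held between 47.2 and 51.7% of that share.

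RefSeq promoter windows (GRCm38.p6), from 250 bases before to 50 after a gene's start, were at hand for 7 of the 10 genes, all but Scd1, Scd2 and Fads1, with a pair of windows for Elovl1. The 250 bases before the start are shown for Elovl5 and Fads2, whose groups did not overlap, and for Fasn, whose groups did, so that the sequences can be set against the values that follow. Capitals mark matches on either strand to CACGTG (an E-box), CCAAT (the NF-Y box) or GGGCGG (the GC box).
Elovl5, chr9:77917115-77917364, plus strand: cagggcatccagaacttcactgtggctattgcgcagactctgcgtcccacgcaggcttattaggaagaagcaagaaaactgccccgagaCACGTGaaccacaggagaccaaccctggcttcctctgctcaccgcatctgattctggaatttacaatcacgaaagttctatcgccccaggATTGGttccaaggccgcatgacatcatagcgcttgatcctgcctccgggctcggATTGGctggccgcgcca
Fads2, chr19:10101504-10101753, minus strand: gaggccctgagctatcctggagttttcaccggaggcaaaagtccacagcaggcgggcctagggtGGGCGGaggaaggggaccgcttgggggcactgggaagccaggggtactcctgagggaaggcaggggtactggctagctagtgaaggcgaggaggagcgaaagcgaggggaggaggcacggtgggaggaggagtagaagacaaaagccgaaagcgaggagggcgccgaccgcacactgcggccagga
Fasn, chr11:120824548-120824797, minus strand: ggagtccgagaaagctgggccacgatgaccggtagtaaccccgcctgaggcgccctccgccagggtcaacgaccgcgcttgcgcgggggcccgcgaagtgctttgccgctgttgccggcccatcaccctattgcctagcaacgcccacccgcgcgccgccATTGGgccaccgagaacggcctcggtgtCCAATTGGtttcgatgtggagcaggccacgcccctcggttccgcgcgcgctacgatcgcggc

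Counted back from the start, with -1 as the last base before it, the Elovl5 window held an E-box from -161 and CCAAT on the opposite strand from -71 and -17. The Fasn window held CCAAT on the opposite strand from -90 and, overlapping each other, on the forward strand from -62 and on the opposite strand from -59. The Fads2 window held a GC box from -186. The groups of Acaca did not overlap either, and its window, which is not shown, held no E-box, CCAAT or GC box. The windows of Acly, Elovl1 and Elovl6, whose groups overlapped, are not shown either. GC boxes were in the Acly window and in both Elovl1 windows. CCAAT was in the Acly window and in 1 of the Elovl1 pair, and the Elovl6 window held none of these motifs. Of the 8 windows, 4 held CCAAT, against 37.4% of all 32851 windows. A GC box was in 4 of 8 (35.7% of all windows, and 62.9% of the windows of tested genes) and an E-box in 1 (7.15% of all windows). None held the sterol response element spelled TCACNCCAC (1.24% of all windows), the C/EBP-ATF element TGATGNAA (3.97%) or the LXR direct repeat (0.0152%). These matches describe letters in a short window only.

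After Lkb1 siRNA the desaturases Scd1, Scd2, Fads1 and Fads2, the carboxylase Acaca and the elongase Elovl5 had lower levels in both Lkb1 siRNA libraries than in either control siRNA library, with mean changes between -16.5 and -8.58%. The groups of Acly, Fasn, Elovl1 and Elovl6 overlapped. So 6 of 10 genes were separated downwards and 0 upwards, against 21.4 and 21.2% of all genes tested, and 7 of 10 were lower in both batches, against 33.4%. In the test without the batch, 0 of the 10 passed an adjusted p of 0.05 in edgeR, where 10 of 12222 genes did (0.0818%), 6 of them lower (0.0491%). At an unadjusted p under 0.05 the 4 desaturases were lower, against 5.53% of all genes, and DESeq2 without the batch called 0 of the 10 (0.401% of all genes). With batch as a replicate block in edgeR, Scd1, Scd2, Fads1, Fads2 and Acaca fell, 5 of 10 genes against 6.99% of all genes lower and 13.6% called in either direction. That fit rests on 1 residual degree of freedom and on the spread of other genes. DESeq2 with the block called Scd1 and Scd2 alone, with adjusted p of 0.00703 and 0.00489, where 1.44% of genes with an adjusted p were called. Over the 10 genes the median log2 fold change was -0.137, with -0.116 within batch 1 and -0.137 within batch 2, beside 4.9e-04 over all genes tested. In bulk RNA, fewer cells of a type and less RNA per cell cannot be told apart.

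**Figure D1:**
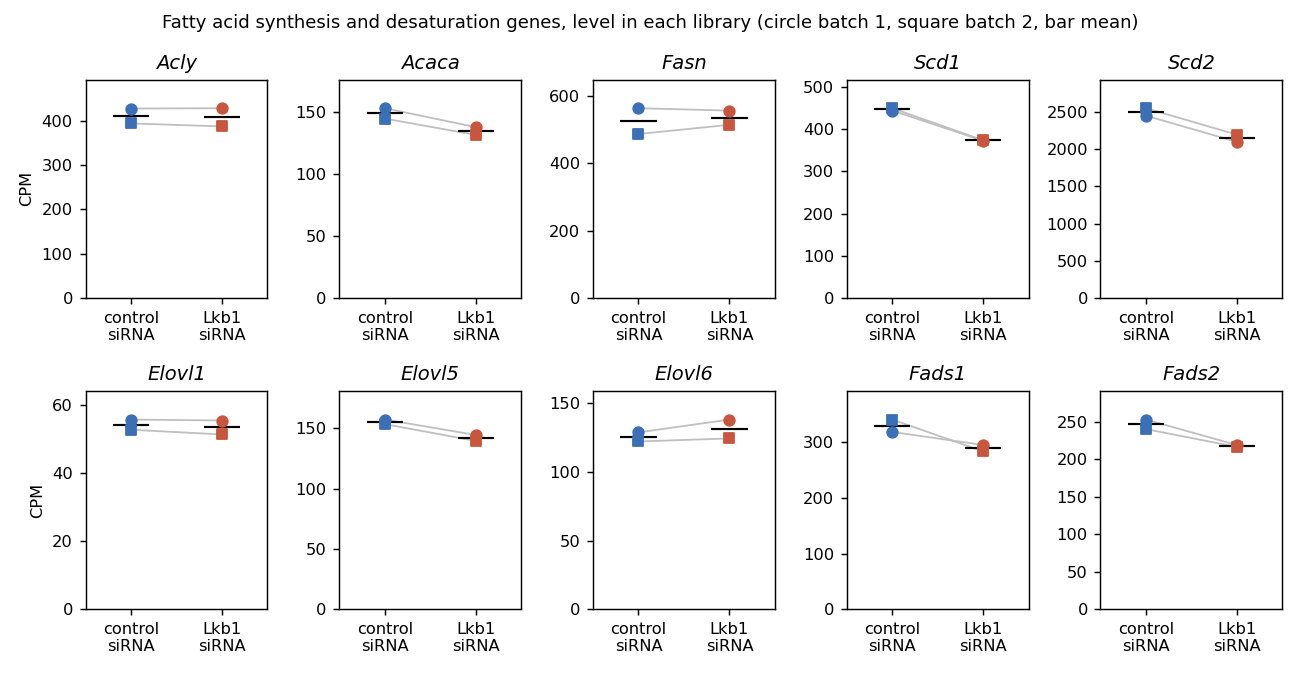
Level of each of the 10 genes in CPM (vertical axes, each from 0) in the control siRNA libraries (blue) and the Lkb1 siRNA libraries (red); circles are batch 1, squares batch 2, grey lines join libraries of a batch and black bars are group means. The 2 groups do not overlap for Acaca, Scd1, Scd2, Elovl5, Fads1 and Fads2, and overlap for Acly, Fasn, Elovl1 and Elovl6.

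Acly (gene ID 104112), which supplies cytosolic acetyl-CoA, was at 427.0 and 393.4 CPM in the control siRNA libraries and 427.7 and 386.8 CPM in the Lkb1 siRNA libraries. Each Lkb1 siRNA library lay close to the control library of its own batch, and batch 2 was the lower of the pair in both groups. The log2 fold change was -0.010 (95% confidence interval -0.18 to 0.16, edgeR adjusted p = 0.9747), and the interval ran from -11.9 to 11.9%. Its sign turned with library size in place of TMM scaling (0.022).

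Acaca (107476), the carboxylase whose protein AMPK phosphorylates, was at 153.1 and 144.8 CPM against 137.9 and 131.6 CPM. Both Lkb1 siRNA libraries lay below both control libraries, in a gene with modest batch differences. The mean was 148.9 ± 5.89 CPM with control and 134.7 ± 4.47 CPM with Lkb1 siRNA (SD, n = 2 per group), which is a log2 fold change of -0.14 (with an SE of 0.0687, and edgeR adjusted p = 0.47). Within the batches the log2 differences were -0.15 and -0.14. With the replicate block the edgeR adjusted p was 0.0302. Acacb, which encodes the carboxylase of the mitochondrial surface, was far less abundant, at 0.37 and 0.57 FPKM against 0.28 and 0.34 FPKM.

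Fasn (14104), the synthase that completes palmitate, was at 563.8 and 487.2 CPM against 556.6 and 514.5 CPM. The Lkb1 siRNA libraries lay between the control libraries, and the differences within the batches had opposite signs, -0.019 and 0.079 on the log2 scale. The log2 fold change was 0.027 (95% confidence interval -0.16 to 0.22, edgeR adjusted p = 0.929). The difference between batches was the larger: in the blocked fit Fasn was lower in batch 2 by a log2 difference of -0.16 (with an SE of 0.0468, and edgeR adjusted p = 0.00798), and Acly by -0.13 (SE 0.0477, adjusted p = 0.0465). This comparison of batches was added after the values were seen, and it called these 2 of the 10 genes, both lower in batch 2, against 12.9% of all genes in either direction and 6.62% lower.

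Among the elongases Elovl5 (68801), which lengthens polyunsaturated chains, was at 157.3 and 153.5 CPM against 144.5 and 139.6 CPM. Both Lkb1 siRNA libraries lay below both controls, and the mean was 155.4 ± 2.67 CPM with control and 142.1 ± 3.48 CPM with Lkb1 siRNA (SD, n = 2 per group). Its log2 fold change was -0.13 (SE 0.0657, edgeR adjusted p = 0.503), with -0.12 and -0.14 within the batches, and the gene did not pass with the replicate block either (adjusted p = 0.0575). Elovl6 (170439), which takes palmitate to stearate, was at 128.9 and 122.3 CPM against 138.3 and 124.5 CPM. It was the higher of the pair in each batch, yet the groups overlapped, and its log2 fold change was 0.065 (95% confidence interval -0.10 to 0.23, edgeR adjusted p = 0.792). Elovl1 (54325), which acts on saturated and monounsaturated very long chains, was at 55.7 and 52.7 CPM against 55.4 and 51.4 CPM. The groups overlapped almost completely, with a log2 fold change of -0.022 (95% confidence interval -0.20 to 0.15, edgeR adjusted p = 0.941) that turned to 0.010 with library size in place of TMM scaling. In percent the 95% confidence interval ran from -12.8 to 11.2% for Elovl1, from -6.99 to 17.6% for Elovl6 and from -10.5 to 16.1% for Fasn. The mean change of Elovl5, -8.58%, lies inside the intervals of Elovl1 and Fasn and outside that of Elovl6.

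Scd1 (20249) and Scd2 (20250) encode desaturases that place a double bond in stearate and palmitate. Scd1 was at 443.8 and 449.3 CPM against 372.3 and 373.4 CPM. The gap between the groups was many times the spread within either. The mean was 446.6 ± 3.88 CPM with control and 372.9 ± 0.812 CPM with Lkb1 siRNA (SD, n = 2 per group), which is a log2 fold change of -0.26 (with an SE of 0.0632, and edgeR adjusted p = 0.196), with -0.25 and -0.27 within the batches. With the replicate block the edgeR adjusted p was 3.51e-06. Scd2 was at 2447 and 2547 CPM against 2095 and 2192 CPM, with batch 2 the higher of the pair in both groups. Its mean was 2497 ± 70.9 CPM with control and 2144 ± 68.5 CPM with Lkb1 siRNA (SD, n = 2 per group). The log2 fold change was -0.22 (with an SE of 0.0614, edgeR adjusted p = 0.26 unblocked and 5.67e-06 blocked), with -0.22 within each batch. In percent the changes of the pair were -16.5 and -14.2%, with 95% confidence intervals from -24.3 to -7.85% and from -22.0 to -5.53%.

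A sign of reads shared between Scd1 and Scd2 was seen in 1 library only. In control siRNA replicate 1 their counts were 8132.17 and 44836.83, which are fractions that add up to the whole number 52969, while the counts were whole in the other 3 libraries. The ratio of Scd2 to Scd1 in FPKM was 4.86 and 4.99 in the control siRNA libraries and 4.96 and 5.17 in the Lkb1 siRNA libraries, and these ranges overlapped. On chromosome 19 the RefSeq gene order puts Scd4 between them and Scd3 beside Scd2. Both relatives were near 0, at no more than 0.25 FPKM (Scd4) and 0.02 FPKM (Scd3) in any library.

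Fads1 (76267) and Fads2 (56473) encode the delta-5 and delta-6 desaturases, which work in turn on the way to arachidonic and docosahexaenoic acid. Fads1 was at 317.6 and 339.7 CPM against 294.2 and 282.8 CPM. Both Lkb1 siRNA libraries were lower than both controls, with unequal steps of -0.11 in batch 1 and -0.26 in batch 2 on the log2 scale. On average it was at 328.6 ± 15.6 CPM with control and 288.5 ± 8.10 CPM with Lkb1 siRNA (SD, n = 2 per group), which is a log2 fold change of -0.19 (with an SE of 0.0689, edgeR adjusted p = 0.358 unblocked and 0.0021 blocked). Fads2 was at 253.1 and 240.4 CPM against 219.1 and 216.7 CPM. Here the step was larger in batch 1, -0.21 against -0.15. Its mean was 246.7 ± 9.02 CPM with control and 217.9 ± 1.73 CPM with Lkb1 siRNA (SD, n = 2 per group), which is a log2 fold change of -0.18 (with an SE of 0.0663, edgeR adjusted p = 0.361 unblocked and 0.00381 blocked). Fads3, their relative next to Fads2 in the gene order, was at 19.4 and 18.9 FPKM against 19.6 and 17.6 FPKM. Its groups overlapped (log2 fold change -0.076 with an SE of 0.0806, edgeR adjusted p = 0.767). Fen1, which flanks Fads1 on its other side, had a log2 fold change of 0.034 (with an SE of 0.0864, and edgeR adjusted p = 0.913). Fen1 encodes a nuclease of DNA replication and was picked for its position after the values were seen.

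**Figure D2:**
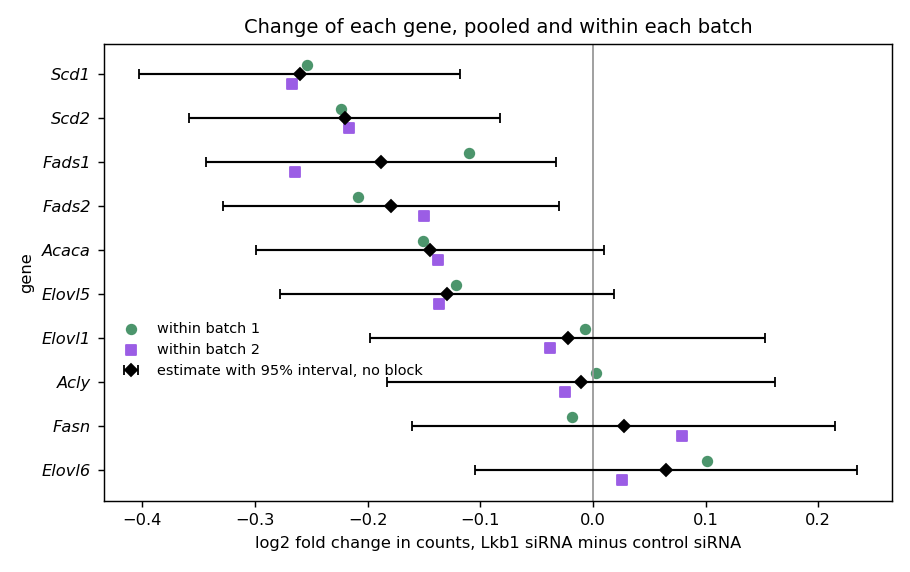
Log2 fold change in counts (horizontal axis, Lkb1 siRNA minus control siRNA) of each of the 10 genes, ordered from lowest to highest. Diamonds with bars are the edgeR estimates without the batch and their 95% confidence intervals, green circles and purple squares the differences within batch 1 and batch 2. The intervals of Scd1, Scd2, Fads1 and Fads2 lie below 0, and the batches fall on opposite sides of 0 for Fasn and Acly.

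Ratios within a library, which need no scaling between libraries, set the genes against each other. The ratio of Scd1 to Fasn in FPKM was 1.57 and 1.84 in the control siRNA libraries and 1.33 and 1.45 in the Lkb1 siRNA libraries. The ratio of Elovl5 to Elovl6 was 2.77 and 2.85 against 2.38 and 2.55, and that of Acaca to Acly was 0.167 and 0.172 against 0.151 and 0.159. In each of these pairs the groups did not overlap, so the partners differed unequally between the groups. The ratio of Fads2 to Fads1 was 0.966 and 0.857 against 0.903 and 0.928 and overlapped. These pairs were chosen after the values were seen and were given no test.

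The transcript table listed 27 RefSeq transcripts of the 10 genes, of which 23 could be tested. None passed in edgeR without or with the replicate block, and neither did any of the 34279 transcripts tested (0.0% called in either fit). At an unadjusted p under 0.05, 4 were lower, against 3.61% of all transcripts: the only transcript listed of Scd1, of Scd2 and of Fads2, and the main transcript of Fads1. Acly had a pair of abundant transcripts. The lesser, NM_001199296, held 29.7 and 26.7% of the gene's count in the control siRNA libraries and 31.9 and 34.2% in the Lkb1 siRNA libraries, and the greater, NM_134037, held 69.3 and 71.9% against 66.9 and 64.0%. Their shares did not overlap between the groups, while their levels did not pass: the log2 fold changes were 0.20 (SE 0.113, edgeR adjusted p = 0.98) and -0.13 (SE 0.092, edgeR adjusted p = 1.0). Fasn reads went to XM_030245556 at between 92.0 and 94.6% in every library. For Acaca the main transcript, NM_133360, held between 67.4 and 75.1%, and 9 of its 11 transcripts were at 0 in some library and above 0 in another. XM_006531957, at 365.36, 234.18 and 219.53 counts in 3 libraries and 0 in Lkb1 siRNA replicate 1, was the clearest case, so the minor Acaca transcripts could not be read reliably.

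**Figure D3:**
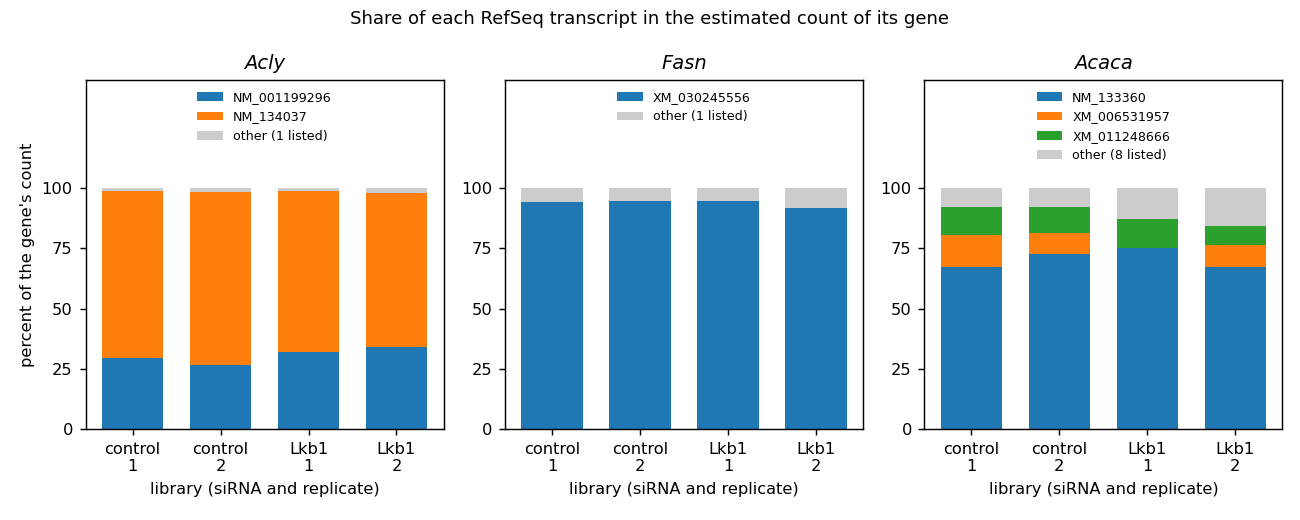
Share of each RefSeq transcript in the estimated count of its gene (vertical axis, percent) in the 4 libraries (horizontal axis) for Acly, Fasn and Acaca. Coloured blocks are transcripts with at least 10% of the gene in some library and grey blocks the rest, and the lesser Acly transcript is larger in both Lkb1 siRNA libraries than in both control siRNA libraries.

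Genes that supply carbon and reducing power to the pathway were listed beside it, with related genes that do neither, such as Acacb and Mid1ip1. Of 10 tested, 8 were lower (median log2 fold change -0.089), none passed without the block and 4 fell with it, against 6.99% of all genes: Slc25a1, Mid1ip1, Acss2 and Acacb. Slc25a1, the carrier that exports citrate from mitochondria to Acly, was at 75.9 and 77.3 against 64.9 and 63.9 CPM, without overlap (log2 fold change -0.25 with an SE of 0.0675, edgeR adjusted p = 0.251 unblocked and 4.41e-04 blocked). Mid1ip1, which promotes the polymerisation of acetyl-CoA carboxylase, was 60.9 ± 1.76 CPM with control and 49.9 ± 3.94 CPM with Lkb1 siRNA (SD, n = 2 per group; log2 fold change -0.29, edgeR adjusted p = 0.27, and 1.65e-04 with the block). Acss2, which makes acetyl-CoA from acetate, was at 12.4 and 15.3 against 9.73 and 10.1 CPM (log2 fold change -0.49 with an SE of 0.142, edgeR adjusted p = 0.285 unblocked and 6.87e-04 blocked). The low Acacb had a log2 fold change of -0.64 (with an SE of 0.26, edgeR adjusted p = 0.402 unblocked and 0.0302 blocked). The genes of reducing power, Me1, Idh1, G6pdx and Pgd, did not pass with the block. Their log2 fold changes were -0.12, 0.12, 0.046 and -0.016 (blocked edgeR adjusted p = 0.0685, 0.0833, 0.608 and 0.906).

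The other genes of elongation and desaturation did not share a direction. Of 12 tested, 8 were lower and 4 higher (median -0.062), none passed without the block, and 2 fell and 2 rose with it, against 13.6% of all genes called in either direction. Elovl4, an elongase of very long chains, was lower without overlap, at 17.1 and 15.8 against 13.8 and 12.8 CPM (log2 fold change -0.305 with an SE of 0.117, edgeR adjusted p = 0.382 unblocked and 0.0306 blocked). Hacd3 and Hacd2 encode dehydratases of the elongation cycle. Hacd3 was higher without overlap, at 63.6 and 63.0 against 73.1 and 69.0 CPM (log2 fold change 0.17 with an SE of 0.0703, edgeR adjusted p = 0.424 unblocked and 0.0384 blocked). Hacd2 had a log2 fold change of 0.13 (with an SE of 0.0698, edgeR adjusted p = 0.513 unblocked and 0.129 blocked). Their relative Hacd4, at only 2.62 and 3.94 against 1.82 and 2.24 CPM, had a log2 fold change of -0.69 (with an SE of 0.278, edgeR adjusted p = 0.401 unblocked and 0.0319 blocked).

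Of 14 regulators of the SREBP, LXR and carbohydrate response pathways 8 were lower and 6 higher (median -0.0135), none passed without the block, and Insig1 and Srebf2 fell with it. These are 2 of 14 called, near the 13.6% of all genes called in either direction. Srebf1, whose product is the SREBP most tied to fatty acid genes, was at 28.08 and 27.96 against 27.25 and 27.45 FPKM, without overlap (log2 fold change -0.070 with an SE of 0.0649, edgeR adjusted p = 0.727 unblocked and 0.403 blocked). Insig1, a sterol-regulated brake on SREBP processing, was at 120.9 and 116.8 against 105.5 and 99.9 CPM (log2 fold change -0.21 with an SE of 0.068, edgeR adjusted p = 0.324 unblocked and 9.94e-04 blocked). Srebf2, which favours sterol genes, was 434.0 ± 5.32 CPM with control and 390.3 ± 13.5 CPM with Lkb1 siRNA (SD, n = 2 per group; log2 fold change -0.15, edgeR adjusted p = 0.428, and 0.0148 with the block). Mlxip, a glucose-sensing factor, and Mbtps2, a protease that releases SREBP, were at 0.14 and -0.17 (unblocked edgeR adjusted p 0.51 and 0.516, blocked 0.101 and 0.102).

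The cholesterol synthesis genes, which SREBP-2 also drives, had the lowest median of the lists, -0.177 over 21 genes, all 21 lower and 18 of them without overlap, against 21.4% of all genes separated downwards. None passed without the block and 13 fell with it, against 6.99% of all genes. Their members with the smallest p were Mvd, Fdps, Nsdhl and Acat2, at log2 fold changes of -0.55, -0.46, -0.37 and -0.36 (edgeR adjusted p between 0.0844 and 0.134 without the block, and between 3.5e-18 and 3.4e-08 with it). Each was further from 0 than any of the 10 fatty acid genes, whose lowest was Scd1 at -0.26. The Acat2 counts were not whole in any library (2390.5 and 2381.19 against 1816.94 and 1765.78), so its share of some reads is uncertain. Whether the lists differ was not tested. Of the 6 AMPK subunit genes tested, Prkaa1, the alpha1 catalytic subunit, was the only lower one and fell with the block, where Prkab1 rose, 2 of 6 against 13.6% of all genes (log2 fold change -0.18 with an SE of 0.0669, edgeR adjusted p = 0.358 unblocked and 0.0112 blocked). Prkab1, a regulatory subunit, was at 0.21 (edgeR adjusted p = 0.448; 0.019 with the block), Prkaa2 at 0.26 and Prkag1 at 0.086, the last pair not passing with the block either (0.308 and 0.331).

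**Figure D4:**
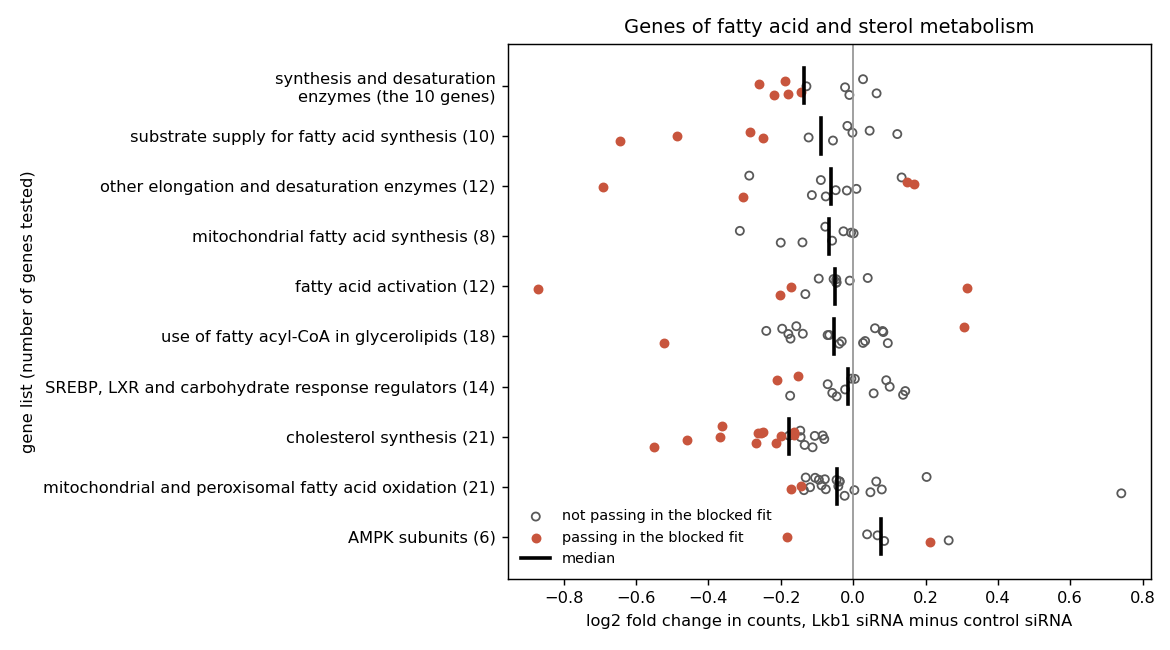
Log2 fold change in counts (horizontal axis, Lkb1 siRNA minus control siRNA) of each tested gene in 10 lists of lipid genes and AMPK subunits (vertical axis, number of tested genes in brackets). Black bars are list medians, and filled points passed an adjusted p of 0.05 in edgeR with the replicate block; cholesterol synthesis has the lowest median (-0.177), followed by the 10 synthesis and desaturation genes (-0.137).

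Some markers differed alongside the desaturases. The summed level of 5 smooth muscle and myofibroblast markers lay between 381.9 and 408.6 FPKM with control siRNA, and between 307.9 and 327.3 FPKM with Lkb1 siRNA, carried by Acta2 and Tagln. Of the rest, Cnn1 and Myh11 reached at most 0.07 FPKM and Des at most 0.45 FPKM. Of the 3 tested, 2 were lower and 1 higher. None passed without the block, and 2 fell with it, against 6.99% of all genes. The higher one was Des, without overlap, at 0.71 and 0.415 against 0.854 and 1.23 CPM (log2 fold change 0.89, blocked edgeR adjusted p = 0.142). The summed level of the 9 neural crest markers was between 2031 and 2103 FPKM against 1713 FPKM in both Lkb1 siRNA libraries, nearly all of it Vim, and the other members did not all share its direction. Of the 8 tested, 5 were lower and 3 higher (median log2 fold change -0.018), none passed without the block, and with it Vim and Snai2 fell and Pax3 rose, against 13.6% of all genes called in either direction. Vim was at a log2 fold change of -0.33 (blocked edgeR adjusted p = 1.03e-13), Snai2 at -0.17 (0.0157) and Pax3 at 0.19 (0.0177), and Pax3 was without overlap in CPM, at 49.4 and 60.1 against 60.3 and 64.8. Sox9 was higher without overlap, at 0.11, and did not pass (0.264). Acta2 and Tagln fell with the block, at -0.41 and -0.31 (blocked edgeR adjusted p = 1.59e-14 and 4.99e-08). The neuronal tubulin Tubb3, the only neuron marker measured, was higher without overlap and rose with the block (log2 fold change 0.32, blocked edgeR adjusted p = 0.0436). Tubb3 was at 11.5 and 11.2 against 16.6 and 11.7 CPM. Its steps were unequal, 0.53 within batch 1 and only 0.066 within batch 2 on the log2 scale. The 4 glial markers measured were all under 1 FPKM in every library. The part of these markers in the differences of the fatty acid genes was not tested.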

How the data were processed

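RNA-seq libraries of JoMa1.3 cells, 2 per siRNA group, were read from a gene table and a transcript table. Per the submitters' processing notes, HISAT2 2.0.4, Bowtie2 2.2.5, RSEM 1.2.8 and the build GRCm39 were used, without stated roles. The annotation release is not given in the sources used here. For each library the authors deposited, per the file headers, a read count, a normalised read count, a FPKM and a TPM. The deposited read counts are expected counts, made by the authors by estimating the fragments of each gene or transcript: between 5.73 and 5.97% of gene counts per library were not whole. The deposited normalised read count is a signal that, in rows over 50 counts, equalled the count raised to a whole number times 1 factor per library (0.9531 to 1.05 in the gene table), within a relative tolerance of 1e-06. It entered no test, and neither did the deposited TPM. The deposited FPKM served for levels between genes. Doubled decimal points, in 14 used cells for genes and 31 for transcripts, were read as single. Libraries were 150 bp read pairs, per the labels' protocols.

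Rounded counts went into edgeR 4.0.16 under R 4.3.3 (quasi-likelihood F-test, robust, TMM scaling, expression filter with minimum count 10), Lkb1 siRNA minus control siRNA, with Benjamini-Hochberg adjustment over all genes or transcripts tested and a threshold of 0.05. SE come from the F statistic. Alternatives used DESeq2 1.42.0, limma 3.58.1 on log2(FPKM + 1) and log2(FPKM + 0.1), other filters and scalings, a removed trend with transcript length, and each library left out. The test code was checked on simulated data. The labels give the culture number as a batch, so numbers pair the libraries: after removal of group means, libraries of the same batch correlated at 0.259 over 12222 genes. The common biological coefficient of variation was 6.39% without and 3.15% with the block. CPM use TMM-scaled library sizes, and per-batch differences use log2 CPM with a prior count of 2.

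The 10 genes and the lists were chosen with earlier results of these data known. Named genes are Stk11, the 10 genes, and up to 4 genes with the smallest p of each other list. Srebf1, Fads3, Scd3, Scd4, Fen1, Acot1, Me1, Idh1, G6pdx, Pgd, Degs1 and the marker genes were added to these after their values were seen.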

Additional observations from a re-analysis of the deposited data

How the results depend on the processing

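Across all genes, 10 passed as reported, against 1660 with the replicate block, 1520 with the block and the length trend removed, 4 with that trend removed and no block, 3 with library size alone, 4 with a mean of at least 5 CPM, 45 when a single count in any library sufficed, 49 with DESeq2, 118 with DESeq2 and the block, and 0 with limma on either FPKM scale. Leaving out a library gave between 66 and 253. Of the 10 fatty acid genes 0 passed as reported, 5 with the block with or without the length trend, 2 with DESeq2 and the block, and 0 under each other alternative. The replicate block changed no call of the other 5 genes or of Stk11. Their median of -0.137 moved to -0.104 with library size alone, -0.0972 and -0.101 with limma on log2(FPKM + 1) and log2(FPKM + 0.1), -0.156 with the length trend removed with or without the block, and to between -0.164 and -0.106 when a library was left out. Scd1, Scd2, Fads1, Fads2, Acaca and Elovl5 stayed below 0 in all 15 alternatives, Scd1 between -0.282 and -0.223.

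The sign of the other 4 genes turned. Acly was at 0.0224 with library size alone, 0.0215 and 0.0217 with limma, and 0.0497 and 0.0621 without control siRNA replicate 1 and Lkb1 siRNA replicate 2, in a range from -0.0826 to 0.0621 with a library left out. Elovl1 was at 0.0103, 0.00291, 0.00298, 0.0176 and 0.0339 in the same settings (from -0.0761 to 0.0339 with a library left out), and at 3.02e-04 and 1.75e-04 with the length trend removed, without and with the block. Fasn was at -0.0751 without control siRNA replicate 2, -0.0283 without Lkb1 siRNA replicate 1 (up to 0.136 with another left out), and -0.00704 and -0.00409 with the length trend removed. Elovl6 was at -0.0103 without Lkb1 siRNA replicate 1 and at most 0.14 with another left out. No transcript of the 10 genes passed in any of the 7 alternatives run. The causes were not tested. Acacb, Hacd4, Cpt1b and Des were under 5 CPM in every library, so their counts are few.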

Other observations

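Genes that handle the finished fatty acids were not described above. Among 12 tested genes of fatty acid activation and acyl-CoA handling 10 were lower (median log2 fold change -0.050), none passed without the replicate block in edgeR, and 3 fell and 1 rose with it, against 6.99% of all genes lower and 13.6% in either direction. Acot2, a mitochondrial acyl-CoA thioesterase, was at 9.22 and 10.99 CPM in the control siRNA libraries and 4.95 and 6.08 CPM in the Lkb1 siRNA libraries, a log2 fold change of -0.87 (with an SE of 0.173, edgeR adjusted p = 0.132 unblocked and 1.24e-07 blocked). Acot2 is nearly identical to its neighbour Acot1, so the split of reads between them is uncertain, and Acot1 was at a log2 fold change of -0.095 (edgeR adjusted p = 0.878). Dbi, an acyl-CoA binding protein, was at 101.5 and 99.3 against 80.2 and 94.5 CPM (edgeR adjusted p = 0.427; 0.00269 with the block). Slc27a1, a fatty acid transporter, was at a log2 fold change of 0.31 with overlapping groups (edgeR adjusted p = 0.536; 0.0458 with the block), and Acot7, a cytosolic thioesterase, at -0.17 (0.515; 0.0226 with the block).

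Of 18 genes that place fatty acids into glycerolipids 11 were lower (median -0.052), none passed without the block, and 1 fell and 1 rose with it, under the 13.6% of all genes called in either direction. Lpin1, which makes diacylglycerol, was at 10.8 and 11.3 against 7.51 and 7.84 CPM (log2 fold change -0.52 with an SE of 0.137, edgeR adjusted p = 0.229 unblocked and 0.00125 blocked). Dgat2, which makes triacylglycerol, was at 23.0 and 19.8 against 24.9 and 27.9 CPM (log2 fold change 0.31 with an SE of 0.112, edgeR adjusted p = 0.358 unblocked and 0.00458 blocked). Agpat3 and Mboat7, acyltransferases of phospholipid synthesis, were at -0.17 and -0.14 and passed in neither fit (edgeR adjusted p with the block 0.0554 and 0.152). Of 8 genes of mitochondrial fatty acid synthesis 7 were lower (median -0.068), and none passed with or without the block; the smallest p belonged to Lipt1, Lias, Cbr4 and Ndufab1, with edgeR adjusted p between 0.468 and 0.847. Of 21 genes of fatty acid oxidation 15 were lower (median -0.046). With the block 2 of the 21 fell, close to the 6.99% of all genes that did, and none rose. Acadl and Hadh, dehydrogenases of the oxidation cycle, were these 2, at log2 fold changes of -0.17 and -0.14 (edgeR adjusted p = 0.0115 and 0.0318; 0.373 and 0.494 without it). Cpt1b, the muscle form of the carnitine transferase, was at 1.419 and 1.504 against 2.28 and 2.61 CPM (log2 fold change 0.74 with an SE of 0.262, edgeR adjusted p = 0.358 unblocked and 0.0508 blocked), and Acads was at -0.14 (0.513; 0.114 with the block).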
